A study of Mus musculus with 8 samples.

Results

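Amino acid transporters are membrane proteins of the solute carrier (SLC) families that move amino acids across the plasma membrane and out of lysosomes. In T cells, glutamine, leucine and arginine brought in this way feed protein synthesis, and they are sensed at the lysosome by the kinase complex mTORC1. Folliculin, the protein of Flcn, acts at the lysosome in that sensing, as a GTPase activator for the Rag proteins, and it keeps the transcription factors TFEB and TFE3 under mTORC1 control. The transporters fall into carriers of glutamate and small neutral amino acids (SLC1), cationic carriers and the light chains of 2-part carriers (SLC7) with their heavy chains (SLC3), sodium- and chloride-dependent carriers (SLC6), sodium-coupled glutamine and alanine carriers (SLC38), facilitative carriers of branched-chain amino acids (SLC43) and several smaller families.

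The members were 39 mouse genes of these families, and the values are ATAC-seq counts, which report how often a transposase could cut the chromatin at a site. A peak, meaning a region counted in every library, was given to the nearest protein-coding gene within 50000 bp, so a peak at a gene is near it and is not shown to regulate it. By this rule 161 of the 57199 peaks lay at 30 of the 39 genes, with a median width of 340 bp. The other 9 genes had no assigned peak, namely Slc1a1, Slc3a1, Slc6a14, Slc7a2, Slc7a3, Slc7a9, Slc7a14, Slc38a4 and Slc38a5. Of the 161 peaks, 131 at 29 genes passed the filter on low counts (10) and were tested. The single peak of Slc7a8 did not pass it.

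Regulatory T cells (Treg cells) of the spleen were sorted as CD45.2+, CD45.1-, CD4+ and Foxp3-YFP+ from mixed bone marrow chimeras, mice rebuilt with marrow of more than 1 donor. One group of 4 libraries came from the WT donor marrow and the other group of 4 from Foxp3Cre Flcn fl/fl marrow, called Flcn KO. In the latter, Cre follows the Foxp3 gene, so the deletion occurs from the stage at which a cell expresses Foxp3. Whether the WT donor carries Cre, and the age of the mice, are not stated in the labels. The labels call the 4 libraries of each group biological replicates.

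Libraries held 2723344 to 5111728 counts in peaks, with the fewest in Flcn KO replicate 4. Peaks at Flcn gave no check of the deletion. There were 4, of which 2 could be tested, with log2 fold changes of -0.57 and -0.28 and a lowest adjusted p of 0.463. All 9 of the Treg and CD4 T cell marker genes had peaks, among them Foxp3, Il2ra and Ctla4, with summed levels of 1546 to 1691 CPM (counts scaled to library size) in WT against 1603 to 1903 CPM in Flcn KO. Of the 88 tested peaks at these genes, edgeR called 3 higher and 1 lower in Flcn KO, 4.55% against 2.37% of all tested peaks. A positive log2 fold change was found at 58 of them (65.9%, against 50.6% of all tested peaks) and a negative one at 30. The B cell marker genes with peaks, Cd79a, Pax5 and Cd22, summed to 30.0 to 43.2 CPM in WT against 23.6 to 39.1 CPM in Flcn KO, and Cd79b and Ms4a1 had none. Of the myeloid markers 3 of 6 had peaks, at 37.9 to 56.3 CPM and 39.8 to 47.2 CPM, and Csf1r, Lyz2 and Cd68 had none. The 2 CD8 markers summed to 26.1 to 37.8 CPM and 21.9 to 47.2 CPM. The 4 NK cell markers summed to 241 to 276 CPM and 254 to 335 CPM, mostly at Klrb1c. Of the erythroid markers 3 of 4 had peaks (Hba-a1 had none), at 35.7 to 38.8 CPM in WT against 48.4 to 66.6 CPM in Flcn KO, ranges that did not overlap. By gene, Gata1 (16.61 to 18.29 against 25.15 to 38.29 CPM) and Hbb-bt (5.904 to 9.179 against 10.15 to 13.92 CPM) were apart. Klf1 (8.669 to 15.36 against 12.19 to 15.64 CPM) overlapped. Among the marker peaks of other cell types, the edgeR test called 1 lower, 7.21 kb outside Cd22 (8.63 ± 1.92 to 3.57 ± 1.16 CPM, SD, n = 4; -1.25, SE 0.33, adjusted p 0.0305). It called 1 higher, 1.19 kb outside Gata1 (10.5 ± 1.45 to 21.6 ± 5.01 CPM, SD, n = 4; 1.04, SE 0.22, adjusted p 0.00354). It also called 1 higher and 1 lower at the NK cell markers, and none at the CD8 and myeloid markers. The part of these other cell types in the results below was not tested. In a sorted population, fewer cells with an open site and a less open site in each cell cannot be told apart.

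To show what stands at the start sites described below, 5 windows from 250 bases before to 50 bases after a RefSeq start are printed (GRCm38.p6, the mm10 build), each 5′ to 3′ on the strand of its gene. Capitals mark matches to 5 motifs searched on both strands: the E-box CACGTG, the CLEAR motif TCACGTG that TFEB and TFE3 bind and that contains the E-box, the C/EBP-ATF response element TGATGCA read by ATF4, the AP-1 motif TGANTCA and the ETS motif GGAAGT. Slc7a1 (chr5:148399855-148400154, minus strand) is shown because its start-site peak separated the groups. Slc38a7 (chr8:95853442-95853741, minus strand) and Slc36a1 (chr11:55204090-55204389, plus strand) encode lysosomal carriers and hold the CLEAR letters, Slc1a4 (chr11:20332664-20332963, minus strand) holds the C/EBP-ATF letters beside its start, and Slc7a11 (chr3:50443564-50443863, minus strand) holds them 2 times.
Slc7a1: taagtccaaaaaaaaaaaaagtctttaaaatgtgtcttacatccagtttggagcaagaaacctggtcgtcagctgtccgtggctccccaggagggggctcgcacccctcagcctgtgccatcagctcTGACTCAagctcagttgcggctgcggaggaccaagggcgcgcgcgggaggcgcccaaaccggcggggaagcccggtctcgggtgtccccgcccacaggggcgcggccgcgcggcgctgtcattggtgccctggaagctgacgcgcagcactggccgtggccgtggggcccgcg
Slc38a7: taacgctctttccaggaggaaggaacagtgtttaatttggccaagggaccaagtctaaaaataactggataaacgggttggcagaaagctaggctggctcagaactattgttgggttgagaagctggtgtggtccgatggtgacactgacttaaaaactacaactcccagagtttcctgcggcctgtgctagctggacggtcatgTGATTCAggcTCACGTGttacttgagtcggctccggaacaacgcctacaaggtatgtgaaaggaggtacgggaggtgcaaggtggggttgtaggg
Slc36a1: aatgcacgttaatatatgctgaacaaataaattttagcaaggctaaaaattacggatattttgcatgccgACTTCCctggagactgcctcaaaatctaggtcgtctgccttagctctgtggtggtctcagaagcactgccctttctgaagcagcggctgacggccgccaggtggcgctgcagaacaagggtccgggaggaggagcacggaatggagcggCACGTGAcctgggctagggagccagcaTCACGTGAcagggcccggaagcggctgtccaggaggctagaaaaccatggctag
Slc1a4: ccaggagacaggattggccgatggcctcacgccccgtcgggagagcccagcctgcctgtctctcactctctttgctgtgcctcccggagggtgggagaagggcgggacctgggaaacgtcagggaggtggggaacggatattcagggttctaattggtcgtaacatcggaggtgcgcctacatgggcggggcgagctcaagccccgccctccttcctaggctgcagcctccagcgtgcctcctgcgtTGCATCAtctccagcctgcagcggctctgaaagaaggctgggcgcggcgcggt
Slc7a11: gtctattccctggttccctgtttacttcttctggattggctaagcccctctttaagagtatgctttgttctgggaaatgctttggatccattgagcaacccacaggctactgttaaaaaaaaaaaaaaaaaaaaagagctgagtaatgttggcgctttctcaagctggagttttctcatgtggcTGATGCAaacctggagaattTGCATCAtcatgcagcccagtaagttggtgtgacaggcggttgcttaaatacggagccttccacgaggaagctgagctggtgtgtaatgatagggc

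RefSeq windows were found for 30 of the 39 genes, 42 windows in all. The CLEAR letters stood in 3 of the 42 windows (Slc36a1, Slc38a7 and Slc7a14), against 4.39% of the 21262 windows of protein-coding genes. The C/EBP-ATF letters stood in 5 of 42 windows, of Slc1a4, Slc6a9, Slc7a11 and Slc7a7, where 2 overlapping windows of Slc7a7 were counted, against 2.78% of all windows. E-boxes stood in 5 windows against 7.84%, AP-1 letters in 5 against 6.99% and ETS letters in 8 against 24.8%. A match describes the letters only, and shows no binding.

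Across all transporter peaks, 5 were lower in Flcn KO, none was higher, and 126 did not pass an adjusted p of 0.05 (edgeR quasi-likelihood test, adjusted over all 47859 tested peaks). That is 3.82% of the tested transporter peaks, against 2.37% of all tested peaks. For the lower direction alone the background was 1.02% and for the higher direction 1.35%. The 5 peaks lay at Slc1a4, Slc7a1, Slc38a1 (2 peaks) and Slc43a1. DESeq2 also called 5 lower and 0 higher, and limma-voom 4 lower and 0 higher. Without the adjustment, 5 transporter peaks had p below 0.05 in the higher and 11 in the lower direction, 12.2% of those tested. The background was 12.9% of all peaks, with 6.87% higher and 5.99% lower. The libraries of both groups did not overlap at 4 peaks that were higher and 9 that were lower, 9.92% against 7.59% of all peaks (4.03% higher and 3.56% lower). The median log2 fold change was -0.02, beside 0.00 for all tested peaks, with a range of -1.83 to 1.30.

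**Figure D1:**
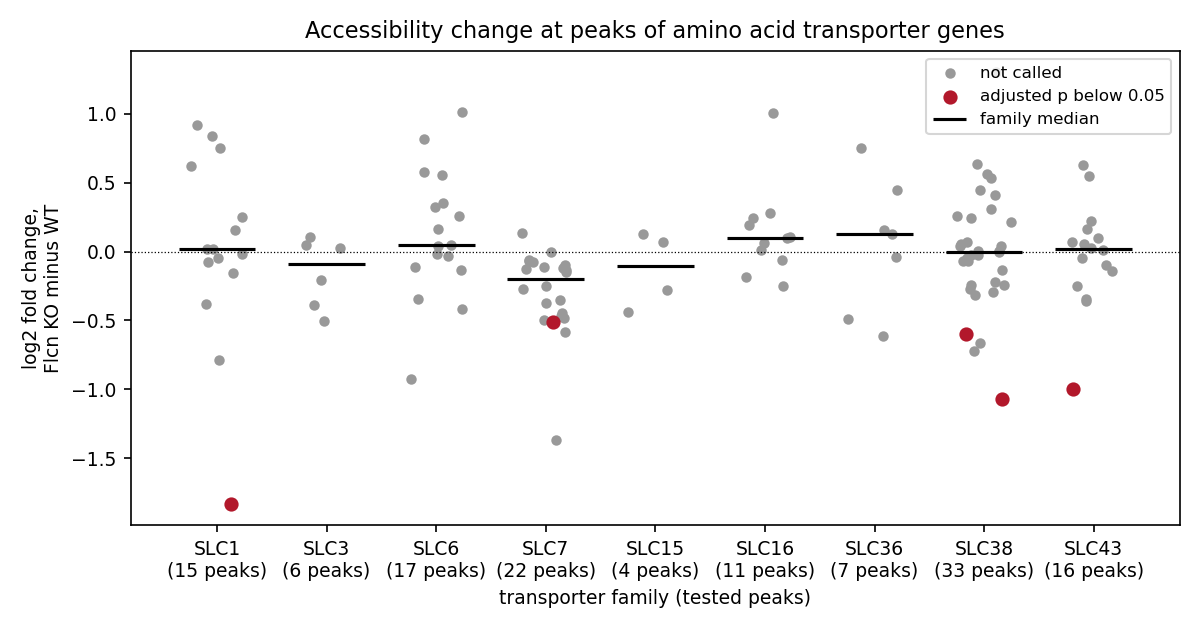
Log2 fold change (Flcn KO minus WT, vertical axis) of each tested peak by transporter family (horizontal axis), with the called peaks marked. The SLC7 points lie below 0 except 1 of 22, whereas in the 33 SLC38 peaks 17 lie above 0 and 16 below.

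The largest fall was at Slc1a4, which encodes ASCT1, an exchanger of alanine, serine and cysteine. Its peak at chr11:20282597-20283134 lies outside the gene, 19.0 kb beyond the 3′ end and 49.6 kb from the listed start, and the next nearest gene is Cep68 at 33.2 kb. The 4 WT libraries gave 10.8, 17.4, 11.7 and 13.3 CPM and the 4 Flcn KO libraries 5.48, 2.67, 1.49 and 5.33 CPM. Every WT library stood above every Flcn KO library, and WT replicate 2 was the highest. The means were 13.3 ± 2.92 CPM (SD, n = 4) and 3.74 ± 1.98 CPM (SD, n = 4), which is a log2 difference of -1.83 (SE 0.32, adjusted p 0.000448 by edgeR), so that 28.1% of the WT level remained. It stayed called in all 16 alternatives, at -2.15 to -1.56. The start-site peak of the same gene (chr11:20332490-20333491) was far higher, 114 ± 14.03 CPM in WT against 108 ± 12.2 CPM in Flcn KO, and did not pass (log2 fold change -0.08, SE 0.10, adjusted p 0.835). The other tested Slc1a4 peak, 467 bp beyond the 3′ end, had means of 6.66 ± 2.63 and 3.87 ± 1.07 CPM (SD, n = 4; -0.79, SE 0.37, edgeR adjusted p 0.346).

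Slc7a1 encodes CAT1, the main carrier of arginine and lysine in many cells. Its peak at chr5:148342320-148342885 lies inside the gene, 14.9 kb from the 3′ end. WT libraries gave 56.0, 58.7, 68.3 and 55.1 CPM and Flcn KO libraries 39.9, 46.5, 43.3 and 37.3 CPM. The groups did not overlap, with WT replicate 3 the highest and Flcn KO replicate 4 the lowest. The level fell from 59.5 ± 6.06 to 41.7 ± 3.99 CPM (SD, n = 4; log2 difference -0.51, SE 0.13, adjusted p 0.018 by edgeR). The call was lost without WT replicate 3 (adjusted p 0.0995) or Flcn KO replicate 4 (0.0732).

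The start-site peak of Slc7a1 (chr5:148399158-148400417), which covers the whole window printed above with its AP-1 letters, had the highest level of all transporter peaks. It measured 161, 157, 179 and 158 CPM in WT against 136, 138, 145 and 133 CPM in Flcn KO. These groups did not overlap either, but the difference of -0.25 (SE 0.09, unadjusted p 0.00842) missed the threshold with an edgeR adjusted p of 0.159. Of the 10 tested peaks of this gene, 9 lay below 0, with a median of -0.36.

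Slc38a1 encodes SNAT1, a glutamine carrier, and had called peaks at 2 places inside the gene. At chr15:96640489-96641013, 2.42 kb from the gene end that faces Slc38a2, WT libraries gave 37.4, 35.02, 40.3 and 41.8 CPM and Flcn KO libraries 27.0, 29.4, 23.4 and 21.3 CPM. All 4 Flcn KO libraries stood below all WT libraries. The means of 38.6 ± 3.03 and 25.3 ± 3.61 CPM (SD, n = 4) differed by -0.60 on the log2 scale (SE 0.15, edgeR adjusted p 0.0236). At chr15:96583231-96583971, 11.8 kb from the other gene end, WT libraries gave 12.9, 10.7, 14.3 and 10.8 CPM and Flcn KO libraries 4.69, 8.55, 6.46 and 3.05 CPM. Again the groups did not overlap. Here the means were 12.2 ± 1.72 and 5.69 ± 2.36 CPM (SD, n = 4; -1.07, SE 0.28, edgeR adjusted p 0.0313). Both calls were sensitive to single libraries. For the first, leaving out WT replicate 3 or 4, or likewise Flcn KO replicate 3 or 4, ended the call (adjusted p up to 0.092). For the second, leaving out any WT library, or Flcn KO replicate 1, 3 or 4, did so (up to 0.118).

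Neighbouring peaks of Slc38a1 did not pass. The one at chr15:96654755-96655135, 11.3 kb outside the gene on the side of Slc38a2, had means of 15.6 ± 4.09 and 9.38 ± 1.92 CPM (SD, n = 4; -0.72, SE 0.24, unadjusted p 0.00546, edgeR adjusted p 0.125). The tallest peak of the gene, at chr15:96638084-96638638, measured 44.6 ± 4.40 and 40.6 ± 4.11 CPM (SD, n = 4; -0.14, SE 0.13, edgeR adjusted p 0.752), and the one at chr15:96598904-96599328 measured 31.4 ± 1.97 and 32.2 ± 2.99 CPM (0.04, SE 0.15, adjusted p 0.949). The adjacent gene Slc38a2, which encodes SNAT2, had 9 tested peaks, with 4 above 0, 5 below and none called. Its start-site peak measured 23.9 ± 3.95 CPM in WT against 29.8 ± 3.97 CPM in Flcn KO (SD, n = 4; 0.31, SE 0.17, edgeR adjusted p 0.468).

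**Figure D2:**
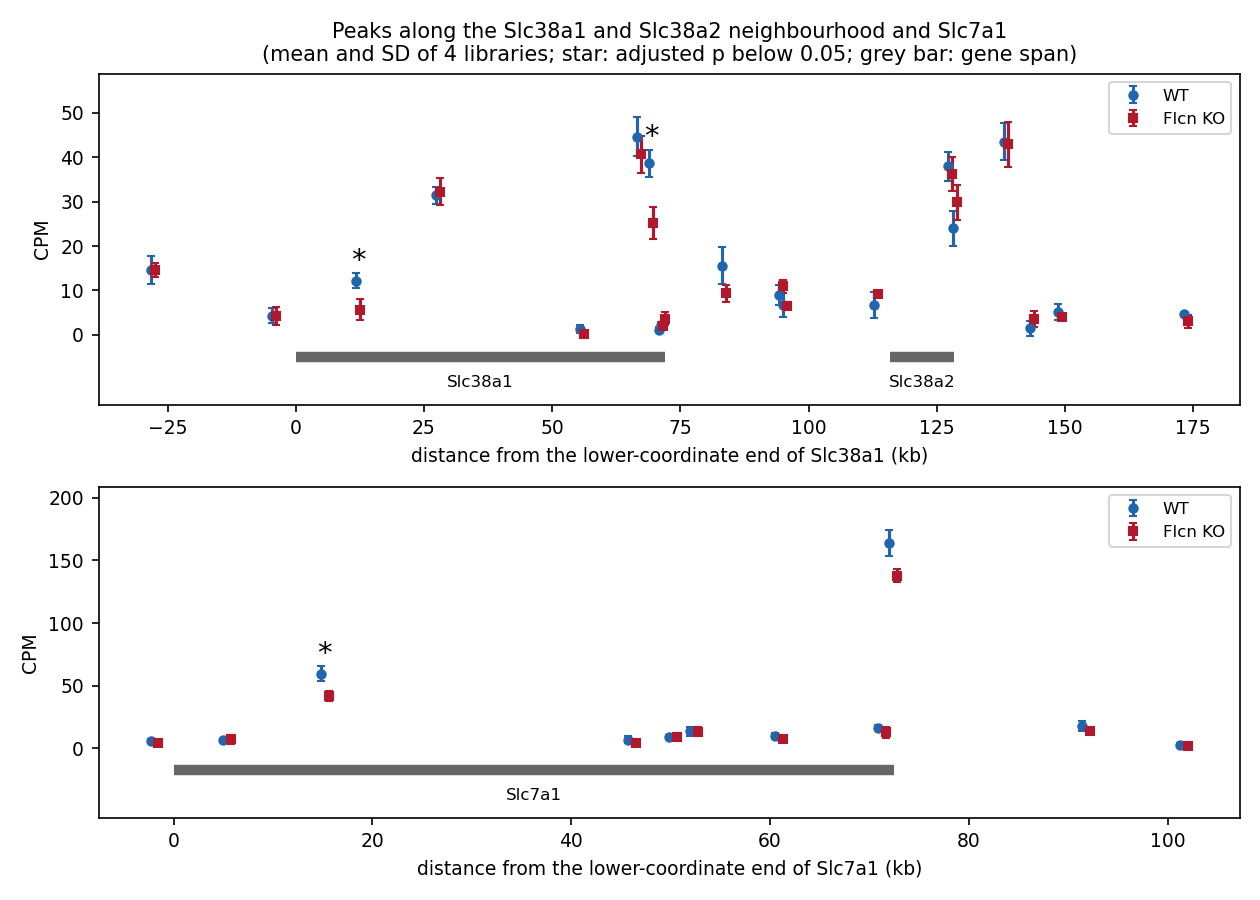
Mean and SD of CPM over 4 libraries (vertical axis) for each peak of Slc38a1 and Slc38a2 (top) and of Slc7a1 (bottom) against distance in kb from the lower-coordinate end of the first gene, with gene spans as grey bars and called peaks starred. At Slc38a1 2 of 8 tested peaks were called lower, and at Slc7a1 the start-site peak on the right is lower in Flcn KO without passing the test (adjusted p 0.159).

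Slc43a1 encodes LAT3, a facilitative carrier of branched-chain amino acids. Its called peak at chr2:84837825-84838345 lies 0.51 kb outside the gene and 1.98 kb upstream of the listed start, with Timm10 at 7.61 kb. WT libraries gave 8.30, 13.8, 16.3 and 14.3 CPM and Flcn KO libraries 7.04, 6.41, 5.97 and 6.86 CPM. The groups were apart, although WT replicate 1 stood close to the Flcn KO libraries. The means were 13.2 ± 3.43 and 6.57 ± 0.480 CPM (SD, n = 4; -0.99, SE 0.26, edgeR adjusted p 0.0318). The call was lost with limma-voom (adjusted p 0.0794) and when any library other than the 2 numbered 1 was left out (up to 0.12). The start-site peak of this gene measured 10.6 ± 0.788 and 11.9 ± 2.59 CPM (0.16, SE 0.24, adjusted p 0.858).

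**Figure D3:**
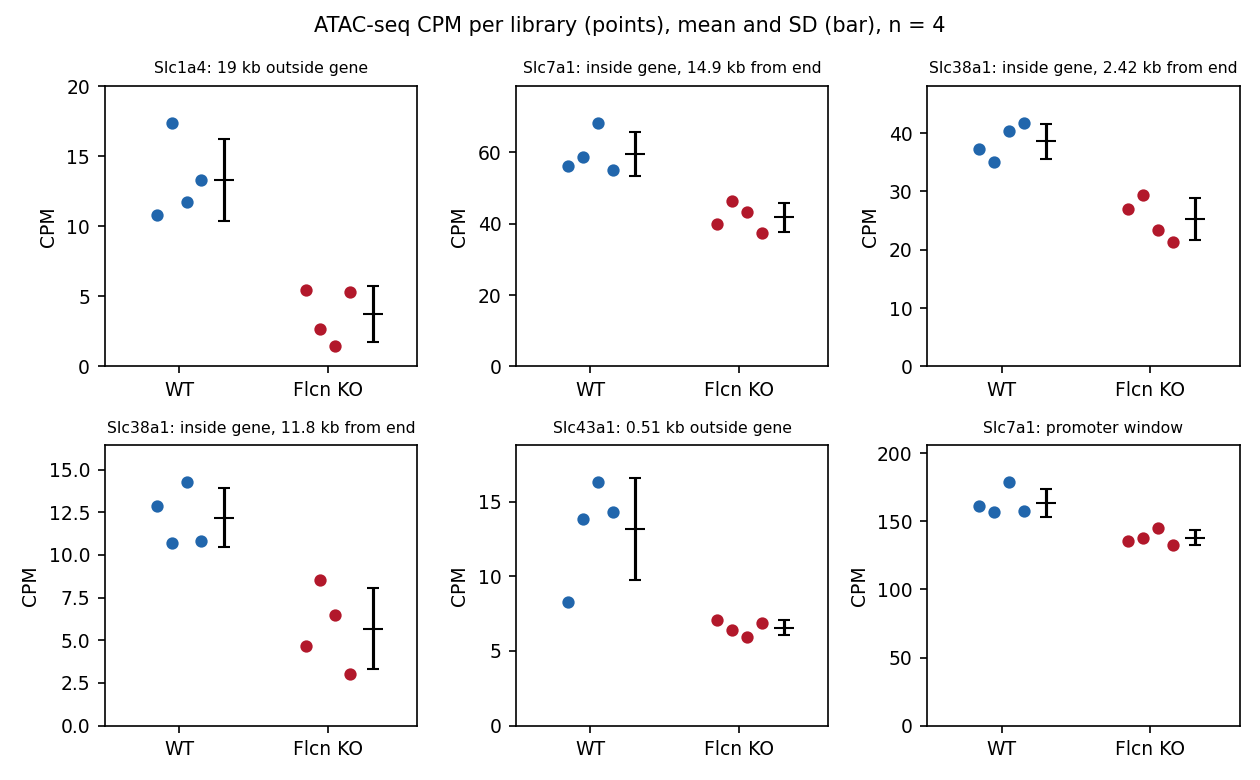
CPM in each library (points; vertical axis from 0) with the mean and SD of 4 libraries, for the 5 called transporter peaks and the Slc7a1 start-site peak. In all 6 panels the lowest WT library lies above the highest Flcn KO library, by the smallest margin at Slc43a1 (8.30 against 7.04 CPM).

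Between 3 and 10 other tested peaks lay within 50000 bp of each called peak, and none of them was called. Their log2 differences ran from -0.79 to 0.22 around the Slc1a4 peak and from -0.58 to 0.13 around that of Slc7a1. Around the Slc38a1 peaks they ran from -0.72 to 0.64 (chr15:96640489) and from -0.07 to 0.04 (chr15:96583231). Around the Slc43a1 peak they ran from -0.56 to 0.55. By position, 3 of the 5 were among the 69 tested transporter peaks inside a gene and 2 among the 46 outside, whereas 2.49% of all tested peaks in either position were called, and 1.03% and 1.13% were called lower. None was among the 16 tested in a promoter window, where 0.441% of all peaks were called, 0.252% as lower.

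Beyond the called peaks, 5 transporter peaks had an unadjusted p below 0.05 and groups that did not overlap, the Slc7a1 start-site peak among them. At Slc1a2, which encodes the glutamate carrier EAAT2, the peak at chr2:102745225-102745564 measured 4.98, 5.35, 7.14 and 5.41 CPM in WT against 9.78, 9.08, 12.9 and 11.4 CPM in Flcn KO. All Flcn KO libraries were higher, and the difference of 0.92 (SE 0.28) had an edgeR adjusted p of 0.0694. Slc6a19, which encodes B0AT1, a carrier of neutral amino acids best known in gut and kidney, had a pair of such peaks. The one at chr13:73690661-73690961 measured 2.77 ± 0.582 and 5.58 ± 1.001 CPM (SD, n = 4; 1.01, SE 0.38, edgeR adjusted p 0.19). The one at chr13:73709573-73710107 measured 3.97 ± 1.31 and 6.995 ± 1.32 CPM (SD, n = 4; 0.81, SE 0.34, edgeR adjusted p 0.273). At Slc36a4, which encodes PAT4, a carrier of proline and tryptophan, the peak at chr9:15714813-15715143 measured 8.61 ± 0.769 and 5.49 ± 1.35 CPM (SD, n = 4; -0.61, SE 0.29, edgeR adjusted p 0.361). None of these 5 was called in any alternative that tested it.

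Among the 9 families of member genes, SLC7 was the one in which nearly all peaks lay on the same side of 0. Of its 22 tested peaks 21 were below 0, with a median of -0.20, whereas 23652 of the 47859 tested peaks were below 0. The family was singled out after its values were seen, and no test was made over it. It holds the cationic carrier Slc7a1 and 5 tested light chains. All 12 tested light-chain peaks were below 0, with a median of -0.13 and a range of -1.37 to -0.06, and none was called (lowest edgeR adjusted p 0.13; 1 with unadjusted p below 0.05). That lowest peak, 9.03 kb outside Slc7a10 (Asc-1, an exchanger of small neutral amino acids), measured 5.47 ± 2.63 and 2.02 ± 1.43 CPM (SD, n = 4). It was called lower without Flcn KO replicate 1 (-1.99, SE 0.53, edgeR adjusted p 0.0187), and it was the one transporter peak called in an alternative but not in the test above. With 1 library left out, between 17 of 24 (without Flcn KO replicate 1) and 22 of 24 (without WT replicate 3) tested SLC7 peaks were below 0. Without WT replicate 4 the count was 17 of 23. For the light chains alone, 10 of 14 tested peaks were below 0 without Flcn KO replicate 1, and as many without Flcn KO replicate 2. With all libraries and no low-count filter, 14 of 17 light-chain peaks were below 0 and 3 above. Slc7a15, an SLC7 gene outside the 39 members, went the other way, with 2 peaks called higher that are described among the further transporters.

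Summed over all 28 of its peaks, SLC7 measured 454, 468, 485 and 475 CPM in the WT libraries and 385, 413, 390 and 394 CPM in the Flcn KO libraries. The groups did not overlap, and the Flcn KO mean was 84.1% of the WT mean. Without Slc7a1 the sums were 159 ± 5.43 CPM in WT against 143 ± 4.38 CPM in Flcn KO (SD, n = 4), still apart. Both sums leave out Slc7a15, whose called peaks had means of 43.7 and 16.4 CPM in WT against 63.2 and 26.9 CPM in Flcn KO. A sum with that gene was not made. For the remaining 8 families the sums overlapped, from SLC15 at 84.0% of WT to SLC16 at 105%. Summed over all 161 peaks, the transporters measured 2125 ± 61.0 CPM in WT against 2025 ± 81.8 CPM in Flcn KO (SD, n = 4), with overlapping libraries.

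Among the light chains, Slc7a5 encodes LAT1, which carries leucine and pairs with the heavy chain CD98 encoded by Slc3a2. The gene-end peak of Slc7a5 measured 62.1 ± 3.82 CPM in WT against 58.2 ± 7.46 CPM in Flcn KO (SD, n = 4; -0.10, SE 0.12, edgeR adjusted p 0.811). All 3 tested Slc7a5 peaks lay below 0 and none was called. For Slc3a2 3 of 6 tested peaks lay above 0 and none was called, with the gene-end peak at 24.4 ± 2.68 and 24.9 ± 3.54 CPM (SD, n = 4; 0.02, SE 0.17, edgeR adjusted p 0.976). Slc7a11, the cystine carrier whose window with a pair of C/EBP-ATF matches is printed above, had a start-site peak of 2.13 ± 0.980 and 2.17 ± 2.08 CPM, too low to test. Its 3 tested peaks lay below 0 (lowest edgeR adjusted p 0.717).

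In SLC1 most peaks at the carriers of glutamate lay above 0 and those at the carriers of small neutral amino acids below, as a description. Of 10 tested peaks at the glutamate carriers Slc1a2 and Slc1a3, 8 lay above 0 (median 0.20), against 50.6% of all tested peaks. All 6 of Slc1a3 were among them, the lowest at 0.017 and 0.022. The 4 tested peaks of Slc1a2 were split evenly, 2 above 0 and 2 below. The 5 tested peaks at the neutral exchangers Slc1a4 and Slc1a5 all lay below 0 (median -0.38). Slc1a5 encodes ASCT2, a glutamine exchanger, and its gene-end peak measured 33.2 ± 4.43 and 29.9 ± 10.7 CPM (SD, n = 4; -0.15, SE 0.18, edgeR adjusted p 0.813). The difference between these carriers was not tested. Over SLC1 as a whole, 8 of 15 tested peaks lay above 0. With 1 library left out this ran from 6 of 15 (without WT replicate 1 or Flcn KO replicate 4) to 10 of 15 (without Flcn KO replicate 1). These counts for the whole family do not show whether the split between the carriers held.

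In the other families the edgeR test called no peak of SLC3, SLC6, SLC15, SLC16 or SLC36, and neither did DESeq2 or limma-voom. Unadjusted p values below 0.05 were found at 3 of the 17 tested SLC6 peaks, 1 of the 4 of SLC15, 1 of the 7 of SLC36 and none of the 6 of SLC3 and the 11 of SLC16. The share over all tested peaks was 12.9%. Slc6a6, the taurine carrier, had a gene-end peak of 25.3 ± 3.08 and 32.2 ± 5.38 CPM (SD, n = 4; 0.35, SE 0.16, edgeR adjusted p 0.35). Slc15a4, an endolysosomal carrier of histidine and peptides, had a start-site peak of 51.2 ± 4.74 and 42.1 ± 3.38 CPM (SD, n = 4; -0.28, SE 0.13, edgeR adjusted p 0.332).

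Start-site peaks were then compared per kb of peak width, since widths differ. Of the 24, 19 overlapped a RefSeq promoter window and 5 lay at a gene end with no listed start used there. In WT the order began with Slc38a9 (171 ± 21.7 CPM per kb), the arginine sensor of mTORC1 on the lysosome. Slc16a10 (152 ± 3.02), a carrier of aromatic amino acids, came next, and their ranges of mean ± SD overlapped. Slc7a1 (130 ± 8.18) and Slc1a4 (114 ± 14.01) followed, also with overlapping ranges. Slc38a7 stood at 90.1 ± 5.30 CPM per kb, Slc7a5 at 84.6 ± 5.21, Slc1a5 at 80.0 ± 10.7 and Slc15a4 at 79.4 ± 7.35. For each of these 4 the range of mean ± SD overlapped that of the next. At the low end were Slc36a1 at 18.0 ± 2.37, Slc43a1 at 15.6 ± 1.16 and Slc7a11 at 8.15 ± 3.74 CPM per kb.

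None of the 21 start-site peaks tested was called by edgeR, DESeq2 or limma-voom. Their log2 fold changes ran from -0.49 to 0.35, with 9 above 0 and 12 below. Of the 16 in promoter windows, 2 had an unadjusted p below 0.05 (Slc7a1 and Slc15a4), 12.5% against 7.14% of all 7937 tested promoter-window peaks. The median was -0.04 for both. The lysosomal glutamine exporter Slc38a7 (SNAT7), whose printed window holds the CLEAR letters, measured 35.3, 31.7, 35.2 and 31.98 CPM in WT against 28.9, 27.3, 26.9 and 30.5 CPM in Flcn KO. The groups did not overlap, but the difference of -0.24 (SE 0.15) had an edgeR adjusted p of 0.536. Slc36a1 (PAT1), another lysosomal carrier with CLEAR letters at its start, measured 9.13, 9.37, 8.67 and 6.89 CPM in WT against 6.65, 7.48, 5.97 and 3.81 CPM in Flcn KO. Here Flcn KO replicate 2 overlapped the lowest WT library, and the difference of -0.49 (SE 0.29) had an edgeR adjusted p of 0.516. The peak of Slc38a9 was 81.7 ± 10.4 and 85.1 ± 8.58 CPM (SD, n = 4; 0.05, SE 0.11, edgeR adjusted p 0.902).

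**Figure D4:**
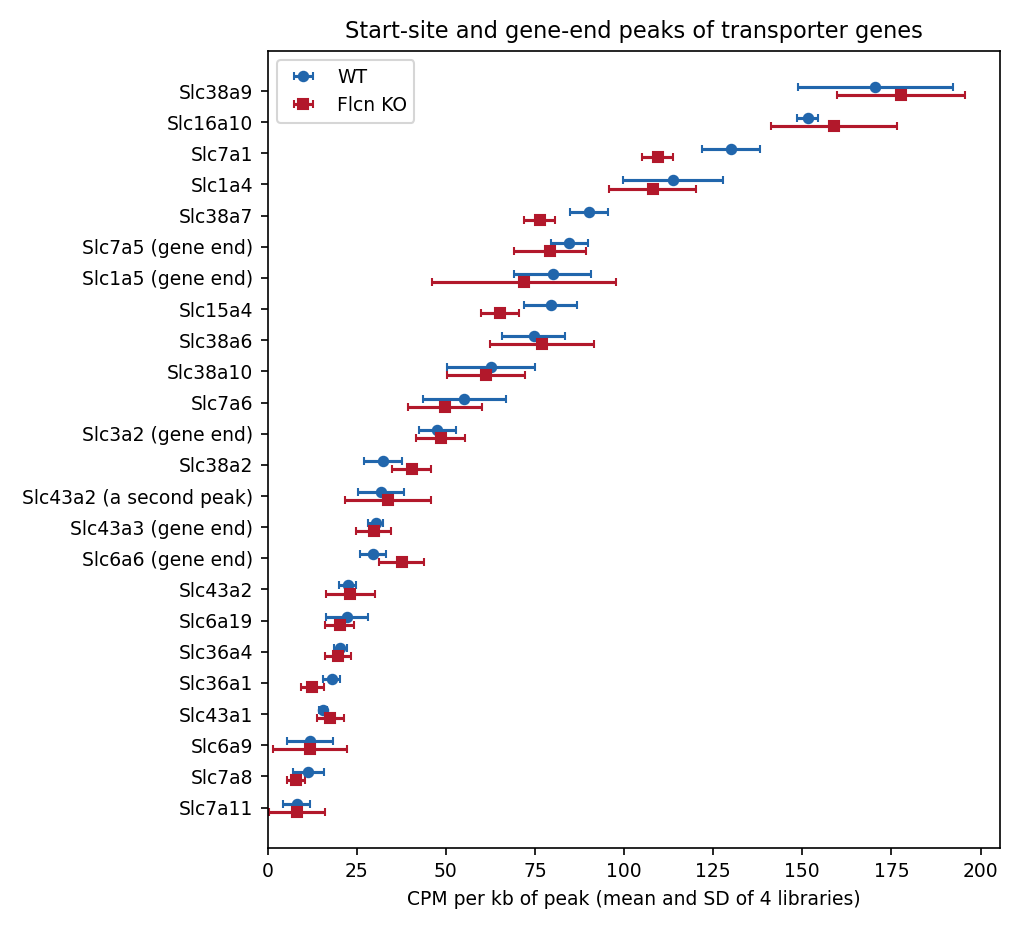
CPM per kb of peak (horizontal axis, mean and SD of 4 libraries per group) for the 24 start-site and gene-end peaks, ordered by WT level; Slc43a2 has 2 promoter-window peaks. Levels run from 171 CPM per kb at Slc38a9 to 8.15 CPM per kb at Slc7a11 in WT, and none of the 21 tested peaks was called.

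Counts were also summed over all peaks of a gene and fitted over 13483 genes, where 1.87% of genes were called, 0.705% in the lower direction. Of the 29 transporter genes tested, Slc7a1 was called lower and none was called higher. In CPM of all counts at assigned genes it measured 303, 330, 350 and 325 in WT and 257, 275, 273 and 268 in Flcn KO. No Flcn KO library reached the lowest WT library. The log2 difference was -0.29 (SE 0.08, edgeR adjusted p 0.0412), and 82.1% of the WT level remained. The call was lost in 9 of 18 alternatives, among them the sum without its called peak (-0.24, adjusted p 0.108), peaks within 10000 bp alone (0.0713), the fit with no low-count filter (0.051), and those leaving out any library other than the 2 numbered 1 (up to 0.149). Slc38a1 came next, at 175 ± 9.95 and 146 ± 10.2 CPM (SD, n = 4; -0.25, SE 0.08, unadjusted p 0.00449, edgeR adjusted p 0.123).

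Of the 29 genes, 19 lay below 0 and 10 above, with a median of -0.05 beside -0.0048 for all genes. An unadjusted p below 0.05 was found for 2 genes (background 12.6%). Groups did not overlap for 3 genes, Slc7a1, Slc38a1 and Slc38a7 (background 7.31%).

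**Figure D5:**
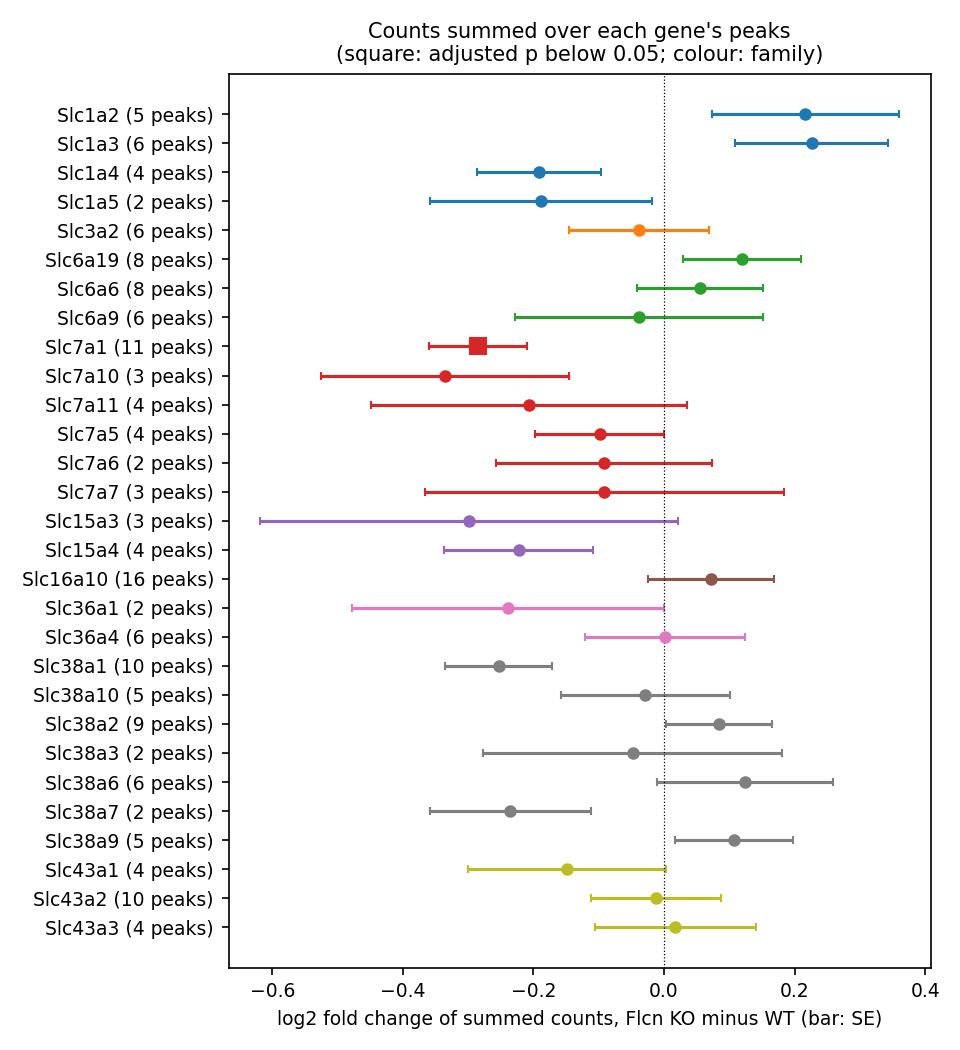
Log2 fold change of counts summed over each gene's peaks (horizontal axis, Flcn KO minus WT; bars are SE) for the 29 tested transporter genes, coloured by family, with the called gene as a square. Slc7a1 (-0.29) is the square; 19 genes lie left of 0 and 10 right of it.

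Peaks of further amino acid transporters and of the pathways that sense and use amino acids were counted in the same fit, where 2.37% of all peaks were called. Of 59 tested peaks at 27 other amino acid transporter genes, 2 were higher and none lower (median -0.02). Both lay at Slc7a15. The peak at chr12:8521377-8521946 measured 43.7 ± 5.46 and 63.2 ± 12.3 CPM (SD, n = 4; 0.54, SE 0.14, edgeR adjusted p 0.02) and the one at chr12:8547333-8547697 measured 16.4 ± 3.17 and 26.9 ± 2.15 CPM (SD, n = 4; 0.72, SE 0.18, edgeR adjusted p 0.0245).

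Of 96 tested peaks at genes of amino acid sensing by mTORC1, 3 were higher and 1 lower (median -0.03). The higher ones lay at Fnip2 (2 peaks, 3.03 and 4.73), whose protein is a partner of folliculin, and at Castor1 (1.01), an arginine sensor, and the lower one at Sesn3 (-0.60), a sestrin. The Fnip2 peak at 3.03 measured 3.76 ± 2.32 and 30.4 ± 4.81 CPM (SD, n = 4; SE 0.28, edgeR adjusted p 1.24e-08). The one at 4.73 measured 0.165 ± 0.203 and 5.39 ± 1.42 CPM (SD, n = 4; SE 0.69, edgeR adjusted p 3.34e-05). Its WT counts were 2, 0, 0 and 1, so it passed the count filter through the Flcn KO libraries alone. The size of that fold change is therefore uncertain. Of 62 tested peaks at genes of the integrated stress response and ATF4 targets, 1 was higher, at Eif2ak3 (1.31, edgeR adjusted p 0.0158), the kinase PERK, and none was lower. Of 122 tested peaks at genes of amino acid metabolism, edgeR, DESeq2 and limma-voom called none. Among them 5 higher and 7 lower had an edgeR unadjusted p below 0.05, 9.84% against 12.9% of all tested peaks.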

How the data were processed

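ATAC-seq libraries of 4 WT and 4 Flcn KO samples were compared. The authors deposited 1 table of counts per peak for all 8 libraries, in whole numbers with no normalization recorded. The submitters' processing notes name the build mm10 and, in no stated order, MACS2 2.1.1, BWA 0.7.16, bedtools 2.25.0, Trimmomatic 0.36, SAMtools 1.9 and Picard 2.9.4. How each was used, and whether peaks were called on pooled libraries, is not given in the sources used here. Between 88.7% and 92.7% of each library's counts per peak (zeros included) are even, and whether both reads of a pair were counted is not stated, so dividing counts by 2 was added as an alternative after seeing the data. Counts are PCR products without molecular identifiers.

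Peaks were assigned to RefSeq genes (GRCm38.p6) by distance to the gene span, at most 50000 bp. CPM use TMM factors. The main test was edgeR 4.0.16 in R 4.3.3 (quasi-likelihood, TMM, filterByExpr with a minimum count of 10), with Benjamini-Hochberg adjustment across every tested peak or gene and a threshold of 0.05, with group as the only term. DESeq2 1.42.0, limma 3.58.1 (voom), other scalings, filters, distances, a replicate block and each library left out in turn were alternatives. On simulated peak counts the fit recovered 66% of 100 changes of 2-fold and 99% of 100 changes of 4-fold, with 11 false calls. The changed peaks left out those of lowest mean level, and all peaks shared 1 dispersion. The recovery therefore does not cover the lowest peaks. Named peaks are those called, and those with unadjusted p below 0.05 and groups that do not overlap. Other peaks named beside them (start sites, neighbours and the lowest light-chain peak) were chosen after their values were seen. The members and lists were chosen with earlier results of these data known. 1 gene of the B cell marker list is not reported here. Library pairs within a group gave a chi-square per peak of 2.18 to 3.56 on the undivided counts, and none was treated as a duplicate. Counting both reads of a pair would raise this value, so its excess over sampling noise is not known.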

Additional observations from a re-analysis of the deposited data

Results flagged for a closer look

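Of 78 groups of 4 libraries checked (summed counts of each transporter gene with a peak in each group, and the family sums), 2 held a library far from the other three by Dixon's test, which chance alone does in about 1 of 20 groups. For Slc7a5 (LAT1) the WT libraries gave 89.41, 81.54, 80.78 and 81.50 CPM, with replicate 1 the highest. For Slc43a3, a purine nucleobase carrier, the Flcn KO libraries gave 48.42, 37.70, 49.59 and 49.99 CPM, with replicate 2 the lowest. Neither gene was called in any comparison above.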

How the results depend on the processing

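None of the 10 named transporter peaks, nor Slc7a1 as a summed gene, changed direction in any alternative. The scalings, filters and tools gave 4 or 5 lower and 0 higher transporter peaks, and counting peaks inside gene spans alone left 3. Leaving out 1 library gave 1 to 5 lower and 0 higher transporter peaks (1 without WT replicate 3 or Flcn KO replicate 4), 0 to 2 lower and 0 higher genes in the summed fit, and 420 to 863 higher and 217 to 934 lower of all peaks. The lower gene count was 0 without the low-count filter and 0 with peaks within 10000 bp, and a minimum count of 30 gave 282 lower peaks in all. The most calls among all peaks came without Flcn KO replicate 1 (863 higher and 934 lower). Pairs with that library gave the highest chi-square values per peak (3.30 to 3.56), and it held the most counts (5111728). The causes of these shifts were not tested. Same-numbered libraries of both groups correlated at 0.080, -0.052, 0.057 and 0.053 in their deviations from the group mean. Libraries of unlike number correlated at -0.152 to 0.175. Values this close to 0 cannot settle whether the numbers pair the libraries. A replicate block gave 736 higher and 639 lower peaks in all, and 0 higher and 5 lower transporter peaks. Depth limits peaks of a few CPM, where 30 of 161 transporter peaks could not be tested.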
